A study of Mus musculus with 12 samples.

Results

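Growth factors and growth factor receptors that act in wounded tissue were followed in cultured mouse neutrophils and macrophages. They were chosen by name, as the genes *Vegfa*, *Vegfb*, *Hbegf*, *Areg*, *Pdgfa*, *Igf1*, *Osm*, *Tgfa*, *Flt1* and *Nrp1*, so that 10 of the 52636 genes in each of the 2 count tables are described. Both tables list all 10. These genes, and the pathway and marker lists used below, were chosen with earlier results of these data known. The shares of them that passed are therefore description only. The study asked how the sensory neuropeptide CGRP (calcitonin gene-related peptide) acts on myeloid cells, and sequenced RNA from neutrophils and from monocyte-derived macrophages, with 3 libraries in each of 4 groups and 12 libraries in all. Neutrophils and monocytes were isolated from the bone marrow of C57BL/6J mice of 8 to 12 weeks. The monocytes then spent 3 days in medium with M-CSF at 10 ng/ml, the growth factor under which monocytes become macrophages, and the labels call them monocyte/macrophage. The 4 groups were neutrophils in saline (PBS), neutrophils with 1 nM CGRP, macrophages in saline and macrophages with 1 nM CGRP, each for 4 h. No transgene or deletion is named for any group. The libraries held between 2002559 and 3631989 counts, so that 3 counts, taken as the floor, equal 0.826 to 1.5 CPM, the unit in which counts are divided by the library's total and scaled to a common size. The floor covers counting error only. The confidence intervals given below also include the spread between libraries. Nothing in the labels or methods says that libraries came from separate mice, and p-values therefore measure the spread between these libraries, which may be technical.

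As background, VEGF-A is the main growth factor for blood vessels, and it signals through the receptor tyrosine kinase KDR, with neuropilin-1 (*Nrp1*) as a co-receptor and FLT1 as a receptor that also acts as a decoy. VEGF-B binds FLT1 and neuropilin-1. HB-EGF (*Hbegf*), amphiregulin (*Areg*) and TGF-α (*Tgfa*) are ligands of the EGF receptor that are made on the cell surface and shed by ADAM proteases, and they drive keratinocytes to grow and move. PDGF-A and IGF-1 act on fibroblasts and muscle cells, and oncostatin M (*Osm*) is a cytokine of the gp130 family. Macrophages are a known source of VEGF-A and IGF-1 in wounds. The CGRP receptor is coupled to cAMP, and *Vegfa* is a textbook target of the hypoxia-inducible factors (HIFs).

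All 10 genes are protein coding in the GENCODE M21 annotation of GRCm38. *Vegfa* spans chr17:46016993-46032369 on the minus strand, *Vegfb* chr19:6982473-6987651 (minus), *Pdgfa* chr5:138976014-138997370 (minus) and *Igf1* chr10:87858265-87937042 (plus). *Areg* spans chr5:91139599-91148432 (plus), *Tgfa* chr6:86195223-86275719 (plus) and *Osm* chr11:4236420-4241026 (plus). The receptors *Flt1* and *Nrp1* span chr5:147561604-147726011 (minus) and chr8:128358604-128503363 (plus). The libraries were primed at the poly-A tail, so reads fall near the 3′ end, and none of the 31-base stretches in the last 500 transcript bases of any of the 10 genes occurs in another annotated gene. Among overlapping genes on the opposite strand, 6330403L08Rik (over *Pdgfa*) had at most 4 counts in any library, *Igf1os* (over *Igf1*) at most 2 and *Gm43917* (over *Tgfa*) 0, and *Mir1903*, within *Nrp1* on the same strand, also had 0.

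Promoter windows from the RefSeq table (GRCm38.p6) were used for 8 of the 10 genes. *Osm* had no entry, and *Hbegf* was not searched. The cAMP response element (CRE) is the DNA sequence bound by CREB, a transcription factor activated downstream of cAMP. The 3 windows shown were picked because they separate the group by its match to the CRE. Each is the 250 bases before the annotated start, 5′ to 3′ on the gene's own strand. *Vegfa* (chr17:46032378-46032627, minus) is shown with GGGCGG, the letters of the GC box bound by SP1, in capitals. *Areg* (chr5:91139349-91139598, plus) and *Flt1* (chr5:147726012-147726261, minus) are shown with TGACGTCA, the full palindromic CRE, in capitals.
Vegfa: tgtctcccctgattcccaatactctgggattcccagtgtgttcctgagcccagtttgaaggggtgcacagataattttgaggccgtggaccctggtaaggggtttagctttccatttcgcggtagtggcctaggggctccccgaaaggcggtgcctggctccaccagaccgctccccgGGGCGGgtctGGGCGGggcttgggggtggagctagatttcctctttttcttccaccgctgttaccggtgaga
Areg: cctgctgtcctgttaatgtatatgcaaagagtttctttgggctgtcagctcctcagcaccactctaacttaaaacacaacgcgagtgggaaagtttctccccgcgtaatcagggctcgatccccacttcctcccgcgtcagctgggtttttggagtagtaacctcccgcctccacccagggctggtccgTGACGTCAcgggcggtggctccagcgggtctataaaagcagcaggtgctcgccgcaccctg
Flt1: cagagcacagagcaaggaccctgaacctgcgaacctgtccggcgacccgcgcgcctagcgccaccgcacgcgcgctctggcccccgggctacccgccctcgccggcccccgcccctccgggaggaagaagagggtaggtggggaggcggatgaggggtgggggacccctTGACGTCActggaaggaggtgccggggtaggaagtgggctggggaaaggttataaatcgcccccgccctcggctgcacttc
The 10 windows of the 8 genes were searched on both strands. TGACGTCA was present in *Areg* and *Flt1*, where it began 61 and 81 bases before the start, and in no window of *Vegfa*, *Vegfb*, *Pdgfa*, *Igf1*, *Tgfa* or *Nrp1*; 1.55% of the 32851 promoter windows in the table hold it. GGGCGG was present in 7 of the 8 genes, all but *Igf1*, against 32.7% of all windows, and in the *Vegfa* window shown it began 72 and 62 bases before the start. TGACG, which is also contained in the full CRE, was in 17.8% of all windows and, of the genes without the full CRE, in the second start of *Vegfa* and the second start of *Pdgfa*. ACGTG, the core of the HIF-binding element, was in 16.6% of all windows and among these genes in the second start of *Vegfa* alone. TGANTCA, the AP-1 site, was in 6.75% of all windows and among these genes in *Igf1* alone. These matches describe letters in short windows and no binding was measured.

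In macrophages, CGRP was accompanied by higher *Vegfa* and *Osm* and lower *Igf1* and *Nrp1*. Of the 10 genes, 7 had enough counts to be tested in macrophages, and 4 of these passed an adjusted p of 0.05 (limma-voom, Benjamini–Hochberg over all genes tested), 2 higher and 2 lower, against 7.43% of all 9393 genes tested, 3.46% higher and 3.97% lower. The other 3 tested genes, *Vegfb*, *Hbegf* and *Pdgfa*, had lower means with CGRP and did not pass. In 6 of the 7 the saline and CGRP libraries did not overlap, against 24.1% of all genes tested. The median log2 fold change of the 7 was −0.51, against 0.005 for all genes tested. In neutrophils 6 of the 10 genes could be tested and 0 passed, against 2.53% of 9819 genes. edgeR and DESeq2 also gave 0, and *Osm* and *Nrp1* had an unadjusted p under 0.05, as did 12.8% of all genes tested. The saline and CGRP neutrophil libraries did not overlap in 3 of the 6, *Osm*, *Hbegf* and *Nrp1*, against 17.8% of all genes. The median log2 fold change was 0.36, against 0.001 for all genes.

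**Figure D1:**
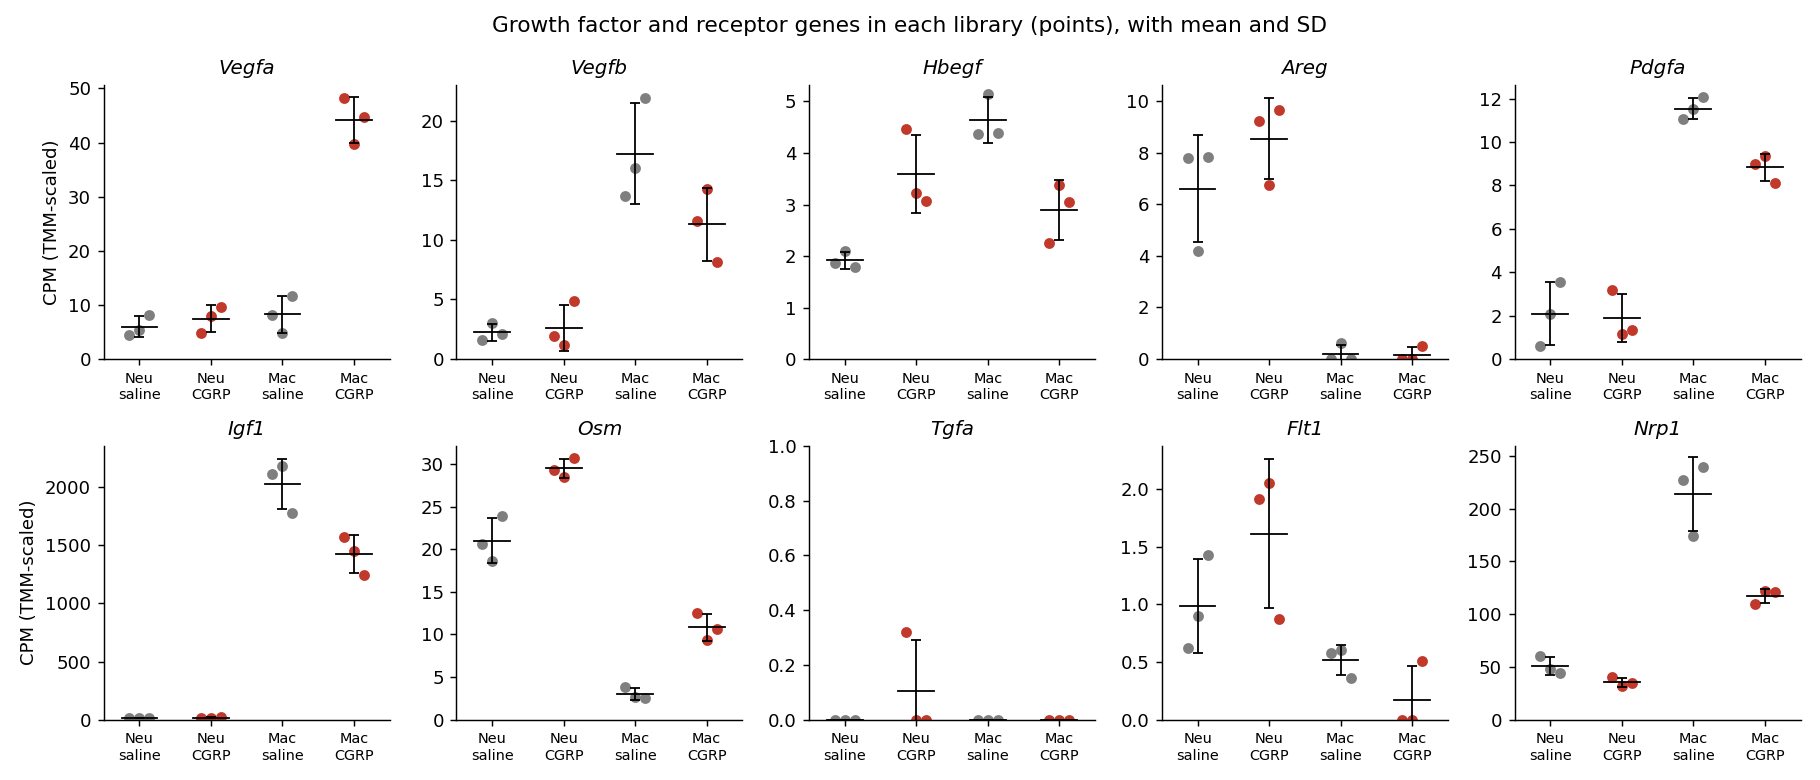
CPM (linear axis from 0, a separate scale in each panel) of the 10 genes in each library, with neutrophils (Neu) and macrophages (Mac) scaled by TMM within their own table; points are libraries, long bars means and whiskers SD, n = 3. *Vegfa* is set apart in the 3 macrophage libraries with CGRP, between 39.7 and 48.1 CPM, while the other 9 libraries lie between 4.36 and 11.7.

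Among the VEGF ligands, *Vegfa* was at 8.15, 4.85 and 11.7 CPM in the 3 saline macrophage libraries and at 48.1, 39.7 and 44.7 CPM with CGRP, from 16 to 32 counts and from 88 to 150 counts per library. The groups did not overlap, and the lowest CGRP library was above the highest saline library. The mean rose from 8.23 ± 3.42 to 44.2 ± 4.22 CPM (SD, n = 3), or 5.37 times, with a log2 fold change of 2.52 (SE 0.27, 95% confidence interval 1.94 to 3.10, limma-voom adjusted p = 1.7e-05). By size of the change it was the 25th of the 325 genes that rose. In neutrophils the same gene was at 4.36, 5.40 and 8.19 CPM in saline and at 4.78, 7.93 and 9.65 CPM with CGRP, and the groups overlapped. The log2 fold change there was 0.29 with an interval of −0.41 to 0.98 (adjusted p = 0.796), so that a rise as large as that in macrophages lies outside the interval. The difference between the CGRP effects was itself tested in a fit over the 12 libraries and came to 2.24 on the log2 scale (SE 0.45, interval 1.31 to 3.16, adjusted p = 0.00532); 2.36% of 10694 genes passed this test. Without CGRP, *Vegfa* did not differ detectably between the cell types (macrophages minus neutrophils 0.36 on the log2 scale, interval −0.37 to 1.08, adjusted p = 0.375). In order of level, macrophages with CGRP came first, and the other 3 groups, saline macrophages, CGRP neutrophils and saline neutrophils, overlapped their neighbours.

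*Vegfb*, whose product binds FLT1 and not KDR, was at 47, 53 and 60 counts in saline macrophages and at 36, 38 and 16 counts with CGRP. In CPM the means were 17.2 ± 4.24 and 11.3 ± 3.07, and the groups overlapped, with a log2 fold change of −0.55 (interval −1.13 to 0.03, adjusted p = 0.285). The neutrophil libraries held 4 to 11 counts of *Vegfb*, too few for the test. *Vegfb* therefore entered the fit over both cell types only through its macrophage counts, and no test between the cell types is given. Its saline means scaled over both cell types were 17.0 CPM in macrophages and 2.27 CPM in neutrophils. In the saline contrast between the cell types, 67.9% of all genes passed, 32.5% higher and 35.4% lower in macrophages. The cell types also differed in medium and in days of culture, which cannot be told apart from cell type here. In order of mean level over the 4 groups, *Vegfa* was highest in CGRP macrophages. For *Vegfb* both macrophage groups came above both neutrophil groups, an order of means that was not tested.

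**Figure D2:**
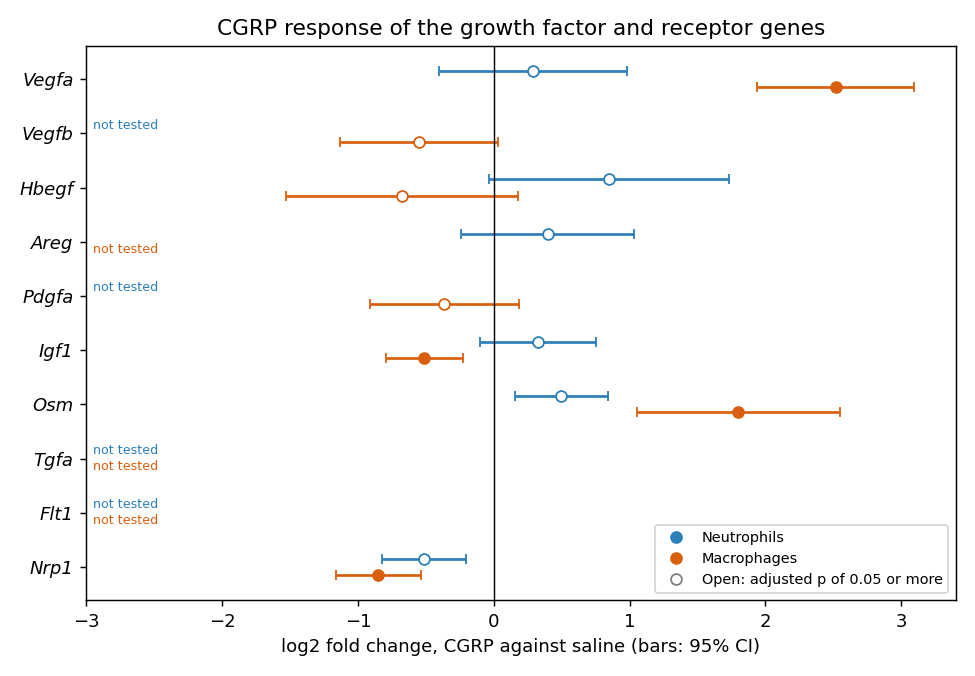
Log2 fold change, CGRP against saline, of each gene in neutrophils and macrophages, with 95% confidence intervals from limma-voom; filled points passed an adjusted p of 0.05. *Vegfa* and *Osm* lie to the right in macrophages and *Igf1* and *Nrp1* to the left, and no neutrophil point is filled.

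The EGF receptor ligands were scarce. *Hbegf* (chr18:36504927-36515805, minus strand) was at 15, 17 and 12 counts in saline macrophages and at 7, 9 and 6 with CGRP, and at 6, 7 and 5 counts in saline neutrophils and at 14, 11 and 7 with CGRP. After scaling, the groups did not overlap in either cell type and the directions were opposite, with 4.63 ± 0.448 against 2.89 ± 0.580 CPM in macrophages and 1.92 ± 0.164 against 3.59 ± 0.760 CPM in neutrophils. Neither difference passed the test (log2 fold change −0.68, adjusted p = 0.386 in macrophages, and 0.85, adjusted p = 0.417 in neutrophils), and nor did the difference between them (−1.51, interval −2.67 to −0.36, adjusted p = 0.199). In saline, *Hbegf* was higher in macrophages (log2 difference 1.16, SE 0.39, adjusted p = 0.012).

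*Areg* was found in neutrophil libraries and hardly at all in macrophages. It had 25, 14 and 22 counts in saline neutrophils and 29, 23 and 22 with CGRP, against 0, 2 and 0 and then 0, 0 and 1 in macrophages, all within the floor. No fold or test of the saline difference between the cell types is given. The macrophages were at the floor, and *Areg* entered the 12-library fit through its neutrophil counts. The difference between its CGRP effects appears only where the dependence on processing is described, and no conclusion is drawn from it. Within neutrophils the groups overlapped at 6.61 ± 2.09 and 8.55 ± 1.57 CPM (log2 fold change 0.40, interval −0.24 to 1.03, adjusted p = 0.663). *Tgfa* had 1 count in 1 CGRP neutrophil library and 0 in the other 11, which allows up to 3 counts, or 0.826 to 1.5 CPM, in each. Of the wider family list (15 ligands, receptors and shedding genes), 4 were tested in macrophages and 6 in neutrophils, and 0 passed in either cell type by limma-voom, edgeR or DESeq2, with 0 at an unadjusted p under 0.05; by limma-voom 7.43% of all genes tested passed in macrophages and 2.53% in neutrophils. The main shedding proteases were present and did not pass, *Adam17* at 131 ± 18.3 and 110 ± 14.4 CPM in saline and CGRP macrophages and *Adam10* at 90.5 ± 14.4 and 107 ± 23.2. Their receptor *Egfr* had at most 2 counts in any library and *Erbb4* had 0.

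Amphiregulin is also known from basophils and other innate cells. The neutrophil libraries held transcripts of basophil and mast cell markers, with *Prss34* the most abundant. All 6 of the listed genes were tested, and 0 passed by limma-voom, edgeR or DESeq2. An unadjusted p under 0.05 was found for 0 of them (against 2.53% and 12.8% of all genes tested there). The list summed to 1139, 1153 and 962 CPM in saline and 1119, 965 and 1089.6 CPM with CGRP. In macrophages the same list summed to between 13.4 and 19.1 CPM. The enrichment kit used for the neutrophils is meant to remove such cells, and the part of these transcripts' source in the *Areg* counts was not tested. The neutrophil label itself was matched by its markers, since *Ly6g*, *Csf3r* and *Cxcr2* had at least 755 counts in each neutrophil library and *S100a8* was the most abundant of its list, while the macrophage libraries held at most 3 counts of *Ly6g* and 7 of *Cxcr2*, but 75 to 141 counts of *Csf3r* and 112 to 184 of *Mmp8*, the gene of a neutrophil collagenase.

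*Igf1*, a growth factor for muscle and connective tissue, was a macrophage gene in these data. It was at 2115, 2183 and 1776 CPM in saline macrophages and at 1573, 1446 and 1246 CPM with CGRP, and the highest CGRP library was below the lowest saline library. The mean fell from 2025 ± 218 to 1422 ± 165 CPM (log2 fold change −0.51, SE 0.13, interval −0.79 to −0.23, adjusted p = 0.0265), which placed it at 365 of the 373 genes that fell, by size. This call depended on single libraries. The adjusted p was 0.177 without saline library 1, 0.104 without CGRP library 2 and 0.156 without CGRP library 3, with log2 fold changes of −0.48, −0.52 and −0.42. In neutrophils *Igf1* was at 13.1, 12.6 and 18.5 CPM in saline and 18.5, 16.4 and 19.7 CPM with CGRP, and these overlapped (log2 fold change 0.32, interval −0.10 to 0.75, adjusted p = 0.561). The difference between the effects was −0.82 (SE 0.26, interval −1.35 to −0.29) and did not pass (adjusted p = 0.107), but it passed in DESeq2 (adjusted p = 0.0398), with quality weights (0.0215) and without macrophage saline library 3 (0.0399). In saline, *Igf1* was 135 times as high in macrophages as in neutrophils by the fitted difference of 7.07 on the log2 scale (SE 0.19, adjusted p = 2.64e-19).

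Neutrophil libraries also held macrophage transcripts. All 10 macrophage and monocyte markers were tested there and 0 passed by limma-voom, edgeR or DESeq2 (1 at an unadjusted p under 0.05), against 2.53% and 12.8% of all neutrophil genes tested, with sums of 2389.6, 2374 and 2357 CPM in saline and 2735, 2138 and 2429 CPM with CGRP, and with *Apoe* the most abundant at 1227 CPM in saline, against 25065 CPM in saline macrophages. The neutrophils had been isolated with an EasySep enrichment kit, which is meant to remove other cell types, and the source of these transcripts and its part in the neutrophil values of *Igf1* and *Nrp1* was not tested. In macrophages, the same markers summed to between 42841 and 47601 CPM in saline and between 53579 and 61395 CPM with CGRP, and *Apoe* was the only 1 of the 10 that passed (log2 fold change 0.46, adjusted p = 0.0263), although 0 of the 10 passed by edgeR and 5 had an unadjusted p under 0.05, against 7.43% of all macrophage genes that passed by limma-voom and 19.8% with such an unadjusted p. The neutrophil markers summed to between 272 and 356 CPM in saline macrophages and between 365 and 410 with CGRP, 0 of the 7 tested passed by limma-voom, edgeR or DESeq2 (2 at an unadjusted p under 0.05), and *S100a8* was the most abundant. The role of cell composition in the macrophage results was not tested, and in bulk RNA fewer cells of a type and less RNA per cell cannot be told apart.

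*Pdgfa*, a mitogen for fibroblasts and other mesenchymal cells, was at 11.1, 11.5 and 12.1 CPM in saline macrophages and at 8.98, 9.37 and 8.13 CPM with CGRP. The groups did not overlap, yet with 16 to 38 counts per library the change did not pass (log2 fold change −0.36, interval −0.91 to 0.19, adjusted p = 0.488). Neutrophils had 2 to 10 counts, below the filter. *Pdgfa* therefore entered the 12-library fit only through its macrophage counts, and no test of the saline difference between the cell types is given. Its saline means scaled over both cell types were 11.4 CPM in macrophages and 2.13 CPM in neutrophils. The difference between the CGRP effects on *Pdgfa* appears only where the dependence on processing is described, and no conclusion is drawn from it. Of its receptors, *Pdgfra* had 0 counts in every macrophage library and at most 3 in neutrophils.

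Oncostatin M was the second factor that rose in macrophages. *Osm* was at 3.78, 2.73 and 2.56 CPM in saline and at 12.5, 9.37 and 10.7 CPM with CGRP, from counts of 7 to 13 and of 21 to 39. All 3 CGRP libraries were above all 3 saline libraries, and the mean rose from 3.02 ± 0.665 to 10.9 ± 1.58 CPM (log2 fold change 1.80, SE 0.35, interval 1.05 to 2.55, adjusted p = 0.00407). It was the 56th of the 325 genes that rose. In neutrophils *Osm* was at 20.6, 18.6 and 23.9 CPM in saline and at 29.3, 28.5 and 30.7 CPM with CGRP, which did not overlap. The log2 fold change of 0.50 (SE 0.16, interval 0.16 to 0.84) had an adjusted p of 0.139, and the difference between the effects was 1.32 (interval 0.55 to 2.09, adjusted p = 0.0615; 0.0321 with edgeR's quasi-likelihood test). The order of level was CGRP neutrophils, saline neutrophils, CGRP macrophages and saline macrophages, with no overlap between neighbours, and in saline *Osm* was 6.81 times as high in neutrophils as in macrophages (log2 difference −2.77, SE 0.31, adjusted p = 4.11e-08). With CGRP, *Osm* in macrophages was still below its level in either group of neutrophils.

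**Figure D3:**
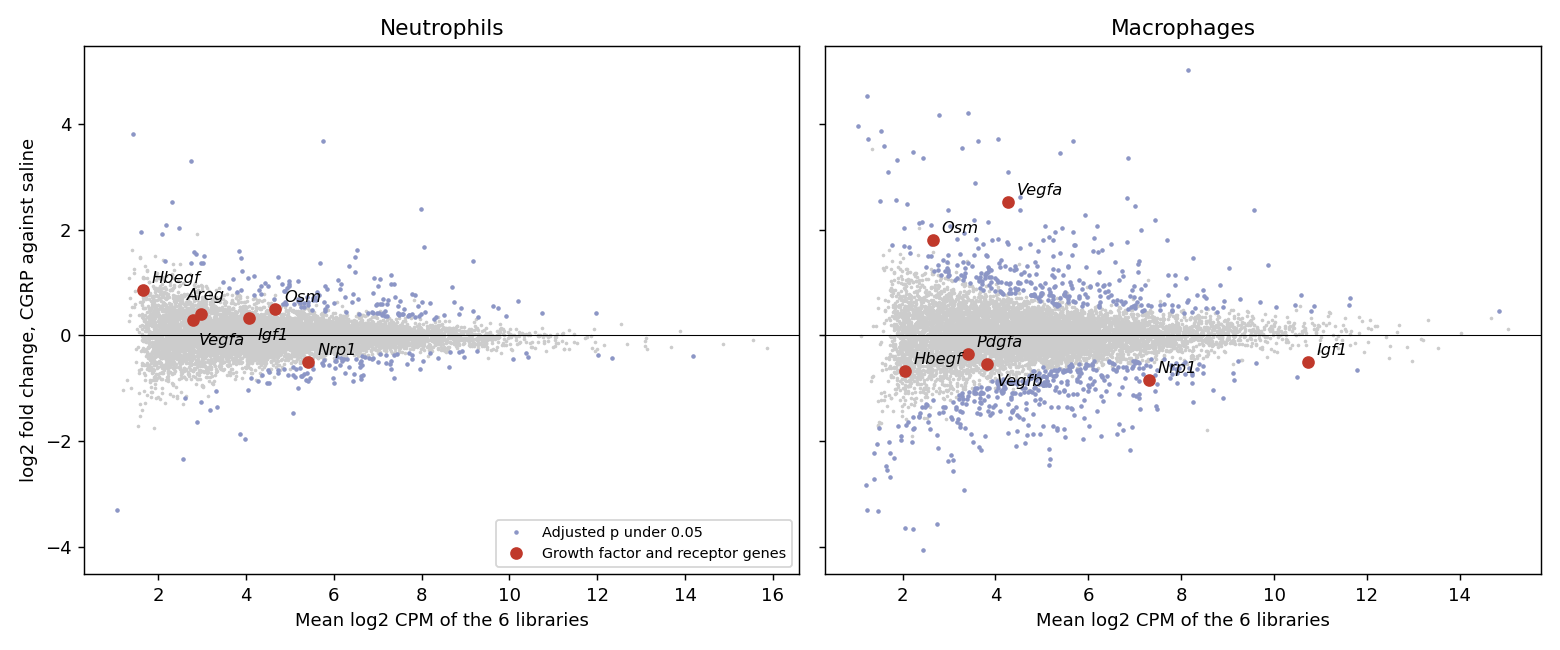
Log2 fold change, CGRP against saline, plotted against the mean log2 CPM of the 6 libraries for all genes tested (grey; blue where the adjusted p was under 0.05), with the growth factor and receptor genes in red. In macrophages *Vegfa* and *Osm* stand above the grey band at low to middling levels, whereas *Igf1* and *Nrp1* are at its lower edge at high levels.

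Of the receptors, *Flt1* was near the floor, with 2 to 7 counts in the neutrophil libraries and 0 to 2 in the macrophage libraries, and was not tested. *Kdr*, the main signalling receptor for VEGF-A, had at most 6 counts in any macrophage library and 1 in any neutrophil library. Endothelial cells carry most VEGF receptor, and of the 7 endothelial markers 6 were at or below the floor in every macrophage library, with *Tek*, *Emcn* and *Robo4* at 0. The remaining marker, *Pecam1*, the most abundant of the list and also made by myeloid cells, had 0, 2 and 6 counts in saline macrophages and 12, 6 and 13 with CGRP, and the list summed to 1.16, 0.909 and 2.92 CPM and then 3.85, 3.37 and 7.11 CPM. None of the 7 could be tested there. In neutrophil libraries the list summed to 18.7, 17.7 and 13.9 CPM in saline and 9.55, 15.3 and 12.7 CPM with CGRP, with *Pecam1* again the most abundant, at 13 to 28 counts, *Egfl7* at 9 to 29 and *Tek* at 0, and neither *Pecam1* nor *Egfl7*, the 2 tested, passed (adjusted p = 0.663 and 0.837). The part of endothelial cells in the *Flt1* counts was not tested.

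*Nrp1*, the co-receptor for VEGF-A and for class 3 semaphorins, fell in macrophages. It was at 227, 174 and 240 CPM in saline and at 110, 122 and 121 CPM with CGRP, or 573 to 781 counts and 238 to 343 counts, and the groups were well apart. The mean fell from 214 ± 35.1 to 118 ± 6.55 CPM (log2 fold change −0.85, SE 0.15, interval −1.16 to −0.53, adjusted p = 0.00157). In neutrophils it was at 60.4, 48.0 and 44.2 CPM in saline and at 40.1, 32.0 and 34.7 CPM with CGRP, which also did not overlap, but the log2 fold change of −0.51 (SE 0.15, interval −0.82 to −0.20) had an adjusted p of 0.0817. The effects in the 2 cell types were not shown to differ (−0.33, interval −0.78 to 0.13, adjusted p = 0.595). *Nrp1* was higher in saline macrophages than in saline neutrophils (log2 difference 2.02, SE 0.15, adjusted p = 2.71e-11), and no neighbours overlapped in the order of saline macrophages, CGRP macrophages, saline neutrophils and CGRP neutrophils.

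The paralogue *Nrp2*, co-receptor for VEGF-C and semaphorins, fell in macrophages too. Its mean went from 143 ± 12.2 to 91.5 ± 15.3 CPM (log2 fold change −0.65, SE 0.15, adjusted p = 0.0136), and the adjusted p was 0.105 without saline library 1 and 0.05 without CGRP library 3. In neutrophils *Nrp2* was at 9.46 ± 0.824 and 8.39 ± 2.02 CPM (log2 fold change −0.22, adjusted p = 0.804). In the rest of the list of 10 VEGF and neuropilin pathway genes, the semaphorin co-receptors *Plxna1* and *Plxnd1* were the other 2 tested in macrophages, at log2 fold changes of 0.02 (adjusted p = 0.982) and 0.001 (adjusted p = 0.999).

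The receptors for the other ligands moved in different directions. *Il6st*, which encodes gp130, the signalling chain shared by oncostatin M, IL-6 and LIF, had 232, 171 and 190 counts in saline macrophages and 125, 87 and 57 with CGRP. In CPM it fell from 62.9 ± 9.67 to 33.9 ± 5.68 (log2 fold change −0.86, SE 0.19, adjusted p = 0.00805), and the adjusted p was 0.0573 without saline library 1 and 0.058 without CGRP library 2. *Osmr*, the chain specific to oncostatin M, had at most 1 count in any library, and *Il6st* was the only 1 of the 9 genes of the gp130 list tested in macrophages. *Igf1r*, the receptor for IGF-1, had 11, 30 and 23 counts in saline macrophages and 40, 55 and 32 with CGRP. It rose from 6.90 ± 3.22 to 16.6 ± 3.90 CPM (log2 fold change 1.38, SE 0.36, adjusted p = 0.027), a call lost without saline library 1 (0.87, adjusted p = 0.199), CGRP library 2 (1.19, adjusted p = 0.136) or CGRP library 3 (1.37, adjusted p = 0.0621). In macrophages, therefore, the ligand *Igf1* was lower and its receptor gene higher with CGRP, whereas *Osm* was higher and *Il6st* lower.

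**Figure D4:**
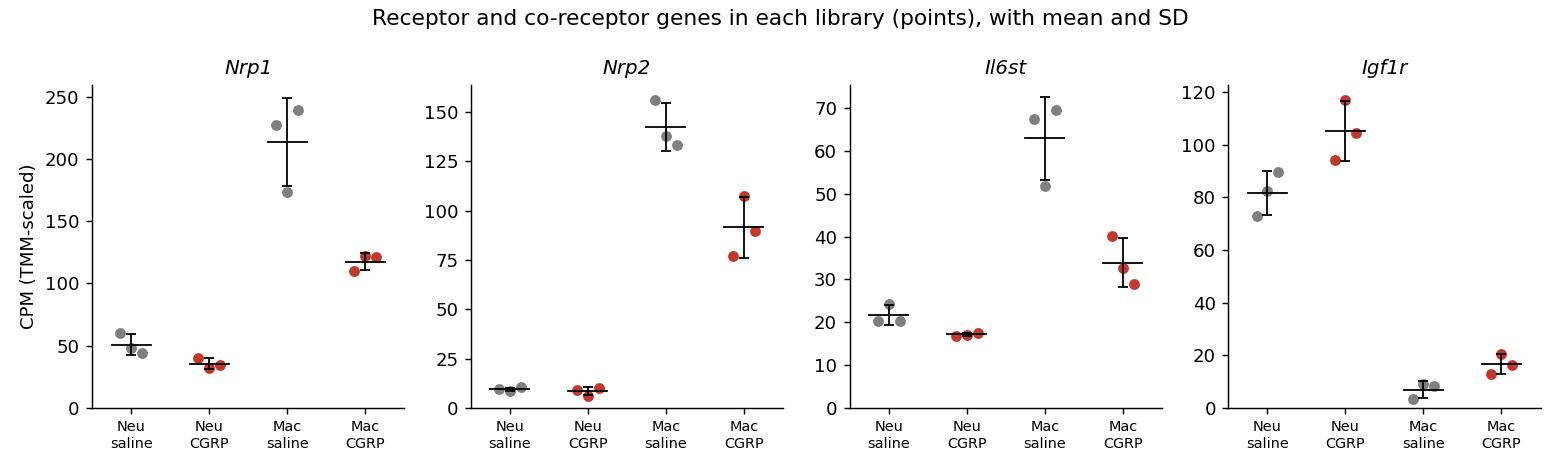
CPM (linear axis from 0, a separate scale in each panel) of *Nrp1*, *Nrp2*, *Il6st* and *Igf1r* in each library, scaled by TMM within each cell type; points are libraries, long bars means and whiskers SD, n = 3. With CGRP the macrophage libraries are lower for *Nrp1*, *Nrp2* and *Il6st* and higher for *Igf1r*.

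In neutrophils the same receptor genes did not pass. *Il6st* was at 21.6 ± 2.31 CPM in saline and 17.2 ± 0.354 with CGRP (log2 fold change −0.33, adjusted p = 0.467) and *Igf1r* at 81.7 ± 8.46 and 105 ± 11.4 CPM (log2 fold change 0.37, adjusted p = 0.0978). Over the 6 lists of growth factor pathways (VEGF, EGF, PDGF, IGF, gp130, and FGF with HGF; 61 genes), 19 genes were tested in neutrophils and 0 passed by limma-voom, edgeR or DESeq2 (2 at an unadjusted p under 0.05), against 2.53% and 12.8% of all genes tested there, and 17 were tested in macrophages and 3 passed, *Igf1r* higher and *Nrp2* and *Il6st* lower, against 3.46% of all macrophage genes tested that rose and 3.97% that fell. The PDGF list and the FGF and HGF list had 0 called by these 3 tools in either cell type, from 1 and 2 genes tested in each, and 0 at an unadjusted p under 0.05.

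Genes known to regulate vessel growth or to respond to oxygen and cAMP were placed beside *Vegfa*. Of the 11 other vessel growth regulators, 3 were tested in each cell type. *Thbs1*, which encodes thrombospondin-1, an inhibitor of vessel growth, was the largest change among them, with log2 fold changes of 2.39 (SE 0.12, adjusted p = 6.07e-11) in neutrophils and 5.02 (SE 0.19, adjusted p = 1.43e-10) in macrophages, so that in macrophages *Vegfa* and this inhibitor rose in the same libraries. *Angptl4*, a lipid-regulating and angiogenic secreted protein, passed in macrophages (47.6 ± 1.40 to 70.3 ± 4.24 CPM, log2 fold change 0.56, adjusted p = 0.0285). That call was lost without TMM scaling (adjusted p = 0.0575), without the filter on low counts (0.0718) and without any 1 of 5 of the 6 libraries, saline 1 or 2 or any CGRP library (0.0504 to 0.142).

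The list of 20 oxygen-sensing and HIF-induced genes had calls in both directions in macrophages. There 16 were tested and 4 passed, 2 higher and 2 lower, against 3.46% and 3.97% of all genes tested, and the median log2 fold change was 0.07 against 0.005 for all genes. *Hif1a*, the oxygen-regulated HIF subunit, rose from 49.3 ± 4.12 to 114 ± 14.2 CPM (log2 fold change 1.20, SE 0.15, adjusted p = 8.39e-05) and *Mxi1*, a MYC antagonist, rose from 9.09 ± 1.72 to 55.2 ± 0.418 CPM (2.61, SE 0.22, adjusted p = 1.58e-06). *Pdk1*, a mitochondrial kinase that inhibits pyruvate dehydrogenase, fell from 47.7 ± 9.05 to 20.2 ± 4.52 CPM (log2 fold change −1.21, SE 0.22, adjusted p = 0.00231). *Ndrg1*, a stress-responsive gene, fell from 20.7 ± 5.81 to 8.54 ± 2.70 CPM (−1.23, SE 0.30, adjusted p = 0.0176), with an adjusted p of 0.0522 without CGRP library 1 and 0.0694 without CGRP library 3. In neutrophils 17 were tested and 2 passed, both higher, against 1.51% of all genes tested that rose there. These were *Hif1a* (47.3 ± 1.47 to 98.1 ± 8.92 CPM, log2 fold change 1.04, SE 0.12, adjusted p = 1.09e-05) and *Ldha*, lactate dehydrogenase A (719 ± 25.7 to 1028 ± 68.4 CPM, 0.51, SE 0.08, adjusted p = 0.00037). *Hif1a* RNA rose in both cell types. *Vegfa* passed in macrophages only, and its CGRP effects differed between the cell types. HIF protein was not measured, and any part of HIF in the *Vegfa* values was not tested.

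Of the 10 cAMP-induced genes, 7 were tested in macrophages and 6 passed, all higher, against 3.46% of all genes tested there. The median log2 fold change was 1.81. This list was drawn up with earlier results of these data known, so the count is no independent test of it. By adjusted p the first 5 were *Crem* (3.68, adjusted p = 5.4e-09), *Pde4b* (3.45, adjusted p = 7.99e-09), *Nr4a2* (4.22, adjusted p = 3.38e-06), *Fosl2* (1.81, adjusted p = 3.22e-05) and *Rgs2* (0.85, adjusted p = 0.00139). The first 3 encode a cAMP-responsive transcription factor, a cAMP phosphodiesterase and an orphan nuclear receptor, *Fosl2* an AP-1 subunit and *Rgs2* a regulator of G proteins. In neutrophils 9 were tested and 2 passed, both higher, against 1.51% of all genes tested, *Nr4a2* (1.47, adjusted p = 0.000279) and *Pde4b* (0.60, adjusted p = 0.00501), the latter with an adjusted p of 0.0633 without saline library 2. The median there was 0.52. *Vegfa* lay within the range of the macrophage values of this list and below those of its 3 leading genes. Any part of cAMP in the *Vegfa* values was not tested.

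**Figure D5:**
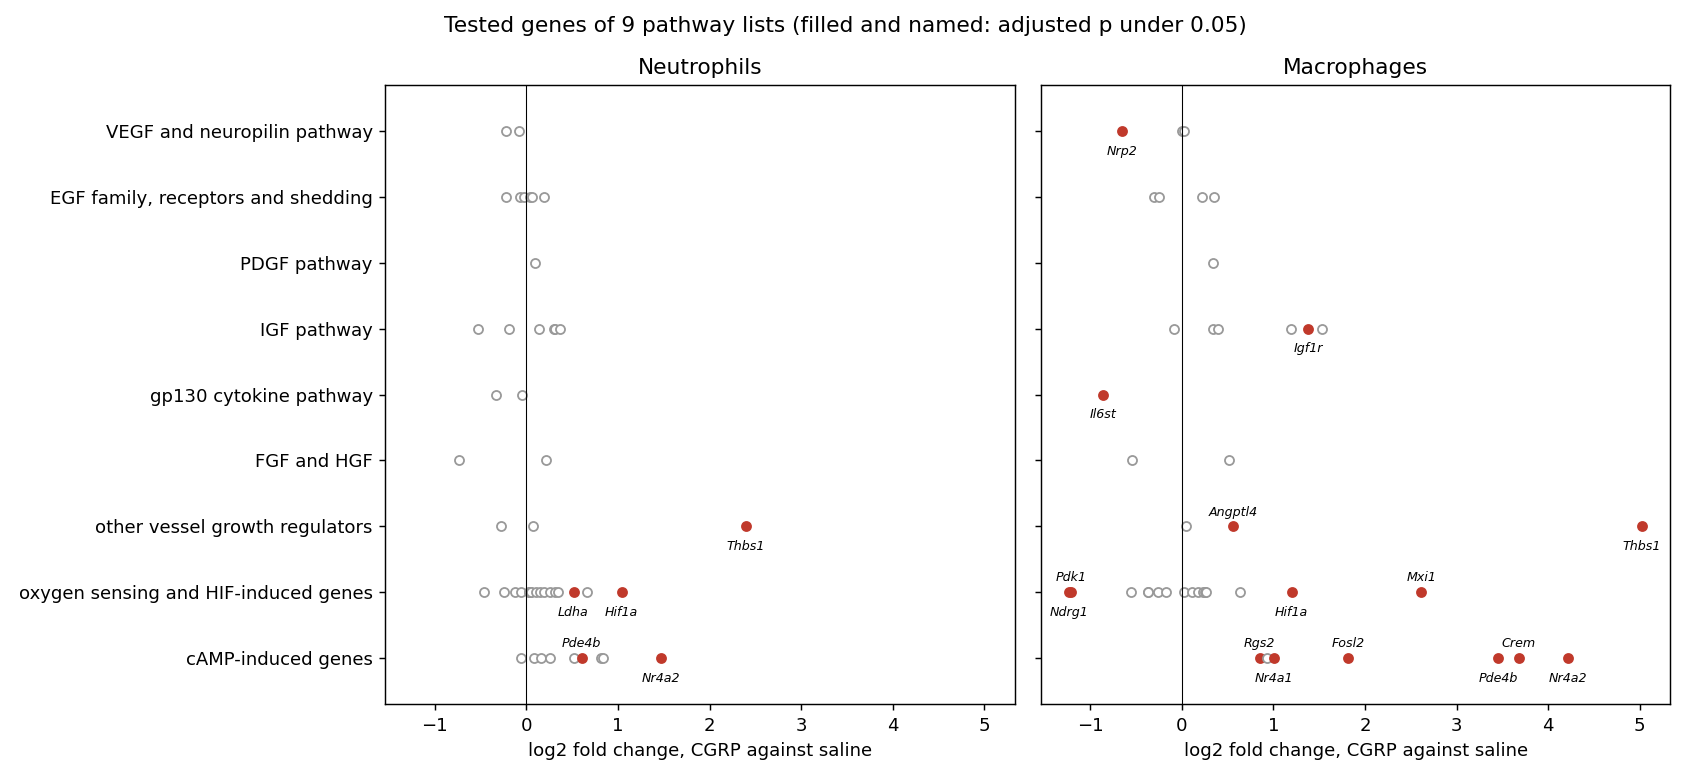
Log2 fold change, CGRP against saline, of the tested genes in 9 pathway lists in neutrophils (left) and macrophages (right); filled, named points passed an adjusted p of 0.05. The cAMP-induced genes lie to the right in macrophages, while the oxygen-sensing and HIF-induced genes fall on both sides of 0.

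The genes whose pattern over the 12 libraries was most like that of *Vegfa*, by Pearson correlation of log2 CPM among 10693 genes, were *Pitpnc1* (r = 0.967), *Lpin2* (0.965), *Fam43a* (0.963), *Bbx* (0.953) and *Picalm* (0.948). They encode a phosphatidylinositol transfer protein, a phosphatidate phosphatase, a protein of unsettled function, an HMG-box protein and a clathrin assembly protein. All 5 shared the high level in CGRP macrophages, for example 220 CPM for *Pitpnc1* against 80.1 to 92.6 CPM in the means of the other 3 groups, and all 5 rose in macrophages, by 0.96 to 1.53 on the log2 scale, and did not pass in neutrophils. The 12 points share 2 cell types and 2 treatments and are not independent, and the genes were picked for this likeness. Over the same libraries *Igf1* (r = 0.569), *Nrp1* (0.323), *Hbegf* (−0.135) and *Osm* (−0.135) followed *Vegfa* less closely. No value is given for *Areg*, *Vegfb* and *Pdgfa*, which entered the 12-library fit through the counts of a single cell type. *Tgfa* and *Flt1* were not kept in that fit.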

How the data were processed

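RNA was analysed from 12 libraries. Per the study's methods, reads carried unique molecular identifiers and were processed with the nfCore/RNAseq pipeline, aligned to GRCm38 with STAR and quantified with featureCounts; the annotation release and strand setting are not given in the sources used here. The authors deposited raw counts, without normalization, as a table per cell type. The values were whole numbers and no library duplicated another. Of the 52636 identifiers, 52403 were found in GENCODE M21.

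For each cell type, genes were kept by filterByExpr, a filter that the study does not state, and were scaled by TMM and tested with limma-voom (two-sided, Benjamini–Hochberg, threshold 0.05), both of which the study names. The interaction and the saline contrast used 1 fit over 12 libraries. CPM are TMM-scaled within a table, and fold changes and levels across cell types come from the 12-library fit. Apart from naming the most abundant gene of a marker list, CPM were not compared between genes. The genes and the pathway and marker lists were chosen with earlier results of these data known. Named are the 10 genes, called genes of the pathway lists (up to 5 per list and cell type by adjusted p), receptors, overlapping genes, the 5 genes most like *Vegfa* and the leading gene of each marker list described; genes named beyond this rule (shedding proteases, plexins and defining markers) were added after their values were seen. The pseudocount for correlations was 0.5 CPM.

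Alternatives tried were DESeq2 and its size factors, edgeR's quasi-likelihood fit, no TMM, no filter, at least 10 counts in every library, quality weights, the replicate number as a block, thinning, a single fit, and leaving out each library; leaving out libraries in the saline contrast was added after seeing the data. On simulated counts, changes of 1 on the log2 scale were recovered for 91 of 100 genes with neutrophil depths (over 9831 genes) and 79 of 100 with macrophage depths (over 9356 genes), and for 52 of 100 in the interaction (over 10704 genes). These shares were not broken down by count level, and recovery at counts as low as those of *Hbegf* was not tested. Software was R 4.3.3 with limma 3.58.1.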

Additional observations from a re-analysis of the deposited data

Results flagged for a closer look

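The CGRP effect on *Vegfa* differed between the cell types. It was larger in macrophages than in neutrophils by 2.24 on the log2 scale (limma-voom interaction, adjusted p = 0.00532), with group means of 6.08 CPM in saline neutrophils, 7.48 in CGRP neutrophils, 8.11 in saline macrophages and 43.5 in CGRP macrophages, all scaled together. Every CGRP macrophage library was above every saline macrophage library. The difference passed in each of 9 alternatives (2.10 to 2.25) and with each of the 12 libraries left out (1.91 to 2.49, adjusted p up to 0.0414). Cell type was confounded with medium and days of culture, which cannot be told apart here.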

How the results depend on the processing

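In macrophages the calls of *Vegfa*, *Osm* and *Nrp1* were kept under every alternative in which each was tested and with each library left out, and that of *Igf1* under all 10 alternatives and with 3 of the 6 libraries left out in turn. Of the 10 genes, 4 passed in macrophages and 3 with at least 10 counts in every library, where *Osm* was not tested; leaving out a library gave 3 to 4, and 0 to 0 in neutrophils. All genes called numbered 248 in neutrophils (138 to 234 with a library left out: 138 without saline 1 or saline 2 and 153 without CGRP 2) and 137 in a single fit over 12 libraries. In macrophages they numbered 698 (347 to 765: 347 without saline 1, 348 without CGRP 2 and 439 without CGRP 3), 1406 with quality weights and 1050 in the single fit. The interaction gave 252 (149 to 328, lowest without macrophage saline 1) and 520 with quality weights, and the saline contrast 7263 (6889 to 7559). Without TMM, higher and lower calls were 150 and 64 in neutrophils (148 and 100 with TMM), 245 and 405 in macrophages (325 and 373) and 88 and 154 in the interaction (129 and 123), where the median of all genes shifted by −0.118. The interactions of *Areg* and *Pdgfa*, which did not pass, changed sign. That of *Areg* was −0.32 and became 0.075 with quality weights, 0.421 without macrophage saline library 2 and 0.066 without macrophage CGRP library 1 (range with a library left out −1.032 to 0.421). That of *Pdgfa* was −0.40 and became 0.235 without neutrophil saline library 1 and 0.038 without neutrophil CGRP library 1 (range −0.894 to 0.235). The cause was not tested. *Areg* entered the interaction fit through its neutrophil counts and *Pdgfa* through its macrophage counts, so no conclusion is drawn from either interaction. For *Areg*, *Flt1* and *Tgfa*, counts near the floor limit what could be detected.

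The labels number the libraries 1 to 3 in each group, but same-numbered libraries did not deviate together (r from −0.013 to 0.135 in neutrophils and −0.176 to 0.267 in macrophages), and 3 of the 6 libraries in each cell type correlated best with their own number. With the replicate number as a block, calls numbered 289 in neutrophils, 1007 in macrophages and 303 in the interaction, and of the 10 genes 1 passed in neutrophils, *Nrp1* (−0.52, adjusted p = 0.0242). The *Osm* interaction passed too (1.30, adjusted p = 0.0493), as it did by edgeR (1.34, adjusted p = 0.0321).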

Other observations

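Markers of further cell types did not pass with CGRP in either cell type by limma-voom, edgeR or DESeq2. With 0 to 5 genes tested per list, this is near the share of all genes, of which 2.53% passed by limma-voom in neutrophils and 7.43% in macrophages, and 12.8% and 19.8% had an unadjusted p under 0.05. In neutrophil libraries the erythroid list summed to 2031 to 2492 CPM (leading gene *Hbb-bt*, 5 genes tested), the eosinophil list to 525 to 631 CPM (*Prg2*, 3 tested), the platelet list to 130 to 197 CPM (*Pf4*, 4 tested), the T and NK cell list to 83.4 to 129 CPM (*Nkg7*, 2 tested, 1 at an unadjusted p under 0.05), the B cell list to 76.0 to 95.2 CPM (*Cd79b*, 4 tested), the stromal list to 69.9 to 91.1 CPM (*Col1a2*, 4 tested) and the dendritic cell list to 10.7 to 18.8 CPM (*Flt3*, 3 tested). In macrophage libraries the platelet list summed to 641 to 989.7 CPM (*Pf4*, 2 tested), the stromal list to 38.1 to 72.1 CPM (*Col1a2*, 3 tested), the B cell list to 31.8 to 40.5 CPM (*Cd79b*, 1 tested), the dendritic cell list to 12.4 to 25.4 CPM (*Ccr7*, 1 tested, at an unadjusted p under 0.05) and the eosinophil list to 6.61 to 12.5 CPM (*Ccr3*, 2 tested, 1 at an unadjusted p under 0.05). The erythroid list summed there to 7.12 to 9.95 CPM (*Hbb-bt*, 2 tested) and the T and NK cell list to 0 to 0.963 CPM (*Cd3d*, 0 tested). The part of such cells in the values of the growth factor genes was not tested.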
